A study of Mus musculus with 9 samples.

Results

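The 10 genes described here encode enzymes, transporters and receptors that handle nucleotides, phosphate and adenosine at the cell surface. They are Entpd1, Nt5e, Enpp1, Enpp2, Enpp3, Ank, Slc20a1, Slc20a2, Adora1 and Adora2b, found by symbol as 10 of the 24102 rows of the deposited expression table. The group was chosen from a known result of these data, a lower Nt5e and a higher Enpp2 in Shox2 mutants, so the values of those 2 genes are given as a description without a test. The question asked of the other 8 is what they do in the same cells.

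RNA was sequenced from GFP-positive cells sorted from digested limbs of mouse embryos at E12.5. Controls had the genotype Shox2(Cre/+);Rosa(mTmG) and mutants Shox2(Cre/-);Rosa(mTmG), with 1 column of values per genotype in each of 3 litters. Both groups carry a Cre allele of Shox2, a homeobox gene of the proximal limb, and the mTmG reporter, which replaces a red membrane protein by GFP in cells that have made Cre and in their descendants. The controls thus have a single intact Shox2 copy and are not wild type, and cells that once used the Shox2 locus but no longer do are sorted too. The labels list 2 mutant samples for litter 1 against 1 column, and do not say how many embryos were pooled or whether fore- or hindlimbs were taken. Levels are in FPKM, fragments per kilobase of transcript, scaled to the number of reads, and errors are SD over n = 3 columns. Shox2 itself was at 217, 222 and 210 FPKM in controls of litters 1, 2 and 3 and at 16.7, 18.3 and 96.9 FPKM in mutants, so the litter 3 mutant kept 46.2% of its control level against 7.68% and 8.25% in litters 1 and 2. In litter 2 the Y-linked Eif2s3y was at 23.9 FPKM in the control and listed at 0 in the mutant. Kdm5d, also Y-linked, was at 4.78 and 0 FPKM there, and Xist, a gene of female cells, at 34.6 and 178 FPKM. Sex thus differed between the columns of litter 2, where it cannot be told apart from genotype. Eif2s3y was at 21.6 and 22.4 FPKM in the control and mutant of litter 1, and at 16.2 and 14.4 FPKM in those of litter 3. Since the labels do not say which embryos a column holds, p-values measure only the spread between these columns.

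ATP released by cells is cut step by step at the membrane. CD39, the product of Entpd1, turns ATP and ADP into AMP, and CD73, the product of Nt5e, turns AMP into adenosine, which acts on receptors such as those of Adora1 and Adora2b. ENPP1 and ENPP3 cut ATP directly to AMP and pyrophosphate, and the Ank protein moves pyrophosphate or ATP out of the cell. Pyrophosphate blocks mineral growth, alkaline phosphatase splits it to phosphate, and Slc20a1 and Slc20a2 encode sodium-driven carriers that take phosphate up. ENPP2, or autotaxin, belongs to the ENPP family by sequence but mainly cuts a lipid, making the signal lysophosphatidic acid (LPA).

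Shox2 is a homeodomain protein, and the core letters of many homeodomain sites are TAAT, so promoters are shown for the members that the deposited list names as directly repressed by Shox2 (Enpp1, Ank and Adora2b), for Nt5e, and for Enpp3, the neighbour of Enpp1. Each runs from 250 bases before to 50 bases after the RefSeq gene start on GRCm38.p6, 5′ to 3′ on the gene's strand, with TAAT on either strand (TAAT or ATTA) in capitals and overlapping matches joined.
Nt5e, chr9:88327359-88327658, plus strand: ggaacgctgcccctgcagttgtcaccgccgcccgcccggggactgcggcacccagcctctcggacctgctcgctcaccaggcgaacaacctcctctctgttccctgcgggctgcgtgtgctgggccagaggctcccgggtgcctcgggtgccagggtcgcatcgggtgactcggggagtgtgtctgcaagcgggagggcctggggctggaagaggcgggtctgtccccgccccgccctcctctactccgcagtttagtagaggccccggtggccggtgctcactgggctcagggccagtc
Enpp1, chr10:24712110-24712409, minus strand: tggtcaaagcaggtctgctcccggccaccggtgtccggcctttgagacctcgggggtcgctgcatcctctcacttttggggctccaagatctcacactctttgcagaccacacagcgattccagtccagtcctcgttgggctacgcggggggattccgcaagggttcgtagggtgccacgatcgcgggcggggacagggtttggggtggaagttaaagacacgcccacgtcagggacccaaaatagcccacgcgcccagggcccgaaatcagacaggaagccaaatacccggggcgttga
Enpp3, chr10:24836146-24836445, minus strand: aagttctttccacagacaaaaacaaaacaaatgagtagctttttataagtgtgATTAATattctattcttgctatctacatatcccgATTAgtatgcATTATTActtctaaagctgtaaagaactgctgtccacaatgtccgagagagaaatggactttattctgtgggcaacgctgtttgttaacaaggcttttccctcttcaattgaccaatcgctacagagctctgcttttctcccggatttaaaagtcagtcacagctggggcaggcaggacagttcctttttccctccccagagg
Ank, chr15:27466427-27466726, plus strand: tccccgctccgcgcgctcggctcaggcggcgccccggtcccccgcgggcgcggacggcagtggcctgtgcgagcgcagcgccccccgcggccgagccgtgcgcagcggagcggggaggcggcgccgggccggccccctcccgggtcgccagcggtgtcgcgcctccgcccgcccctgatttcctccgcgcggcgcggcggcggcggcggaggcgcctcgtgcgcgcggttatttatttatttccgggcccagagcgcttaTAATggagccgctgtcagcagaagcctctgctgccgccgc
Adora2b, chr11:62248734-62249033, plus strand: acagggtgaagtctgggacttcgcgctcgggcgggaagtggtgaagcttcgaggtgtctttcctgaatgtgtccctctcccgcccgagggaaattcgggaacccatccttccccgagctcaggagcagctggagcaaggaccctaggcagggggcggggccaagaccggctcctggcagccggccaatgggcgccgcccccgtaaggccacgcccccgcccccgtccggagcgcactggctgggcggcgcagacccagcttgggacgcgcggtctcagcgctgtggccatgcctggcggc

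The Enpp3 window held 5 matches, the Ank window 1, and the windows of Nt5e, Enpp1 and Adora2b held 0. Of 32851 promoters of this length, 58.0% held at least 1 match, against 4 of the 11 windows listed for 8 of the members. A match is only a run of letters, and a window without one says nothing of more distant sites. The 5 windows differ in base composition, with 40.7% G and C in Enpp3 and 61.7% to 78.0% in the other 4.

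In the controls the phosphate carriers and autotaxin stood highest. Slc20a1 was at 34.7 ± 2.68 FPKM, Slc20a2 at 17.1 ± 1.55 FPKM and Enpp2 at 16.1 ± 1.44 FPKM. Nt5e, at 7.34 ± 1.74 FPKM, and Ank, at 6.32 ± 0.381 FPKM, came next, followed by Adora2b at 3.45 ± 0.108 FPKM. Enpp3 at 1.91 ± 0.319 FPKM, Enpp1 at 1.48 ± 0.194 FPKM, Entpd1 at 1.24 ± 0.444 FPKM and Adora1 at 0.638 ± 0.180 FPKM were low. The columns of neighbours in this order overlapped for Slc20a2 and Enpp2, for Nt5e and Ank, and along the run from Enpp3 through Enpp1 and Entpd1 to Adora1, while the other 4 steps were separate. In the mutants Enpp2 had the highest mean and Nt5e lay below Ank in every column.

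**Figure D1:**
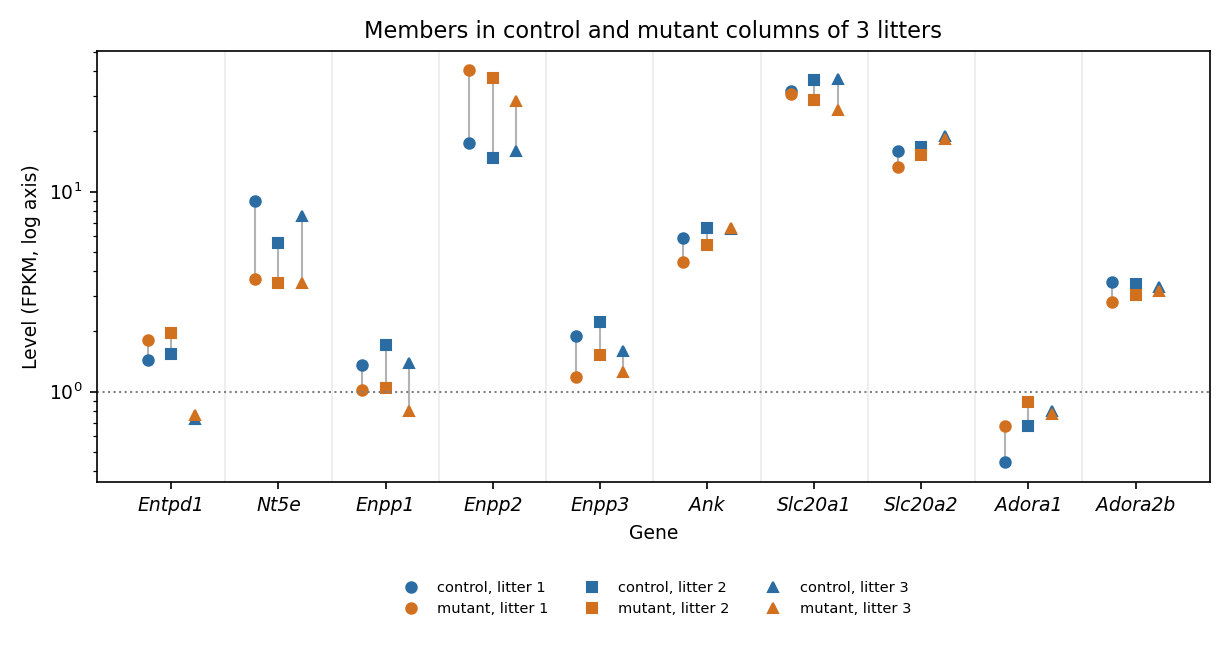
Level of each of the 10 genes (FPKM, log axis) in the control (blue) and mutant (orange) columns, with a marker shape per litter and a grey line joining the columns of a litter; the dotted line is 1 FPKM. Enpp2 is higher and Nt5e lower in all mutant columns, and all 6 columns of Adora1 lie under 1 FPKM.

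Nt5e, whose enzyme takes the last step to adenosine, was lower in the mutants by more than any other member. It was at 8.97, 5.50 and 7.57 FPKM in the controls of litters 1, 2 and 3 and at 3.64, 3.48 and 3.50 FPKM in the mutants. The groups did not overlap, and the mutant columns lay closer together (SD 0.0882 FPKM) than the control columns (SD 1.74 FPKM). The mutant mean was 48.2% of the control mean, with 40.6%, 63.2% and 46.3% in litters 1, 2 and 3. Values were normalised for each litter, so whether the controls or the mutants made the litters differ cannot be told. The mean change on the log2(FPKM + 1) scale, which understates changes of low genes, was -0.86.

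Enpp2 was at 17.5, 14.7 and 16.0 FPKM in control cells against 40.3, 36.8 and 28.4 FPKM in mutant cells. Every mutant column was above every control column, and the mean was 2.19-fold that of the controls, or 1.07 on the log2 scale. The mutant was at 229%, 251% and 177% of its control in litters 1, 2 and 3. It was the only tested member with a higher mean in the mutants besides Entpd1.

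Of the 8 other members, 7 reached 1 FPKM in at least 3 columns and were tested with all 12314 such rows, and Adora1 did not. Of these 7, 5 were lower in all 3 litters (Enpp1, Enpp3, Slc20a1, Slc20a2 and Adora2b), where 22.3% of tested rows were, and 1, Entpd1, was higher in all 3, where 15.7% were. The columns did not overlap for 4 of the 7, Enpp1, Enpp3, Slc20a1 and Adora2b, each lower, where 5.03% of tested rows were lower without overlap. Values were normalised for each litter, so overlap, here and below, compares columns of different litters that may not share a scale. The median log2 change of the 7 was -0.19, against -0.04 over all tested rows. Over all rows limma called 0 genes higher and 0 lower (0% in each direction at an adjusted p of 0.05), and none of the 7 passed, each with a limma adjusted p of 1.00, also the highest value under the alternatives, where the lowest was 0.247. At an unadjusted p under 0.05 limma found 272 rows higher (2.21%) and 167 lower (1.36%), or 658 (5.34%) and 775 (6.29%) with litter as a block, and again 0 of the 7 in either fit. With litter as a block, 315 rows were called higher and 219 lower without litter 2, and 31 and 5 without litter 3, with none of the 7 among them. The differences of these 7 genes did not exceed the spread between columns by enough to pass the test. Each SE and interval below is from the fit without a litter term, so it includes differences between litters. With litter as a block, the 95% intervals were -0.21 to 0.52 for Entpd1, -0.72 to 0.02 for Enpp1 and -0.68 to 0.03 for Enpp3. They were -0.49 to 0.11 for Ank, -0.58 to 0.00 for Slc20a1, -0.39 to 0.11 for Slc20a2 and -0.47 to 0.16 for Adora2b.

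**Figure D2:**
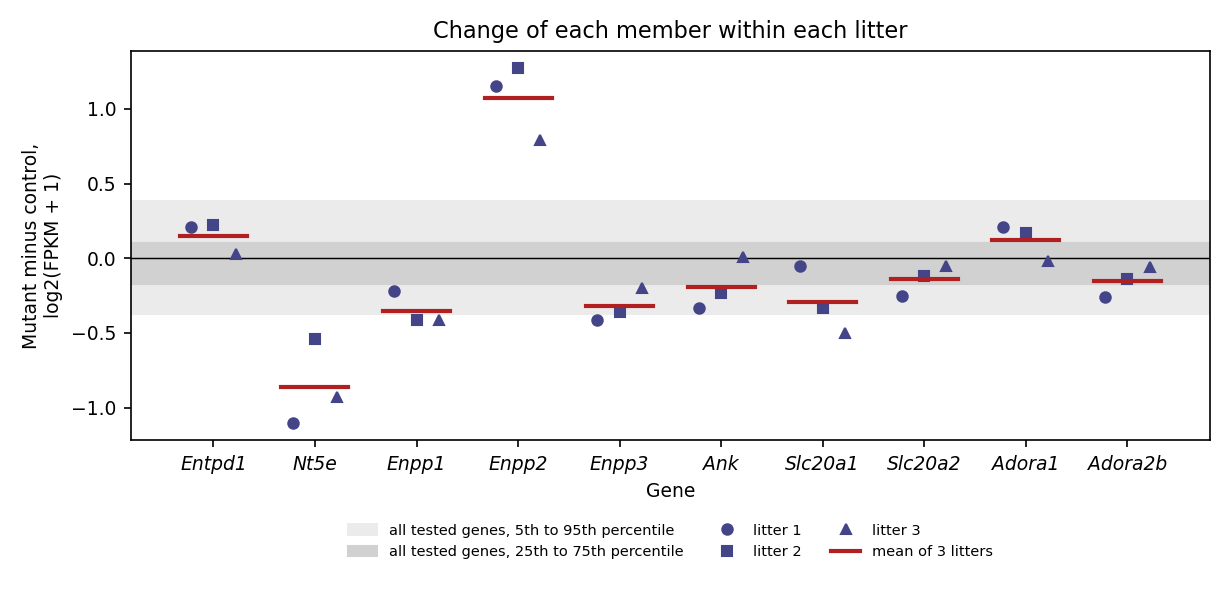
Mutant minus control on the log2(FPKM + 1) scale for each gene in each litter (points) with the mean over the 3 litters (red bar); the grey bands hold the 25th to 75th and the 5th to 95th percentiles of the mean change over all 12314 tested genes. Nt5e, at -0.86, and Enpp2, at 1.07, lie outside the wider band, but the group was chosen for these changes. The means of the other 8 lie between -0.35 and 0.15.

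Upstream of Nt5e, Entpd1 was at 1.44, 1.54 and 0.727 FPKM in control cells against 1.82, 1.96 and 0.767 FPKM in mutant cells. Litter 3 was low in both genotypes, so the groups overlapped although each mutant was above its control, at 126%, 127% and 106%. The log2 difference of 0.15 (SE 0.27) had a 95% interval from -0.48 to 0.79, and it was -0.02 without the litter 3 control. Entpd1 is also made by blood vessels and macrophages. The 8 endothelial markers summed to between 14.8 and 19.3 FPKM in the controls and between 11.4 and 14.3 FPKM in the mutants, and the vessel gene Pecam1 ran from 0.648 to 3.81 FPKM. The 9 leukocyte markers summed to between 13.1 and 15.9 FPKM in the controls and between 11.2 and 21.0 FPKM in the mutants, with Ptprc, which encodes the pan-leukocyte protein CD45, at most 0.337 FPKM. The endothelial sums were thus lower in the mutants by a narrow margin without overlap, while the leukocyte sums overlapped. Egfl7, the highest endothelial marker, was at 61.0%, 195% and 110% of its control in litters 1, 2 and 3. Of the 4 tested endothelial markers 1, Kdr, was lower in all litters, where 22.3% of all tested rows were. Kdr entered the test mainly through its controls, with mutants at 0.947, 1.04 and 0.793 FPKM. Emcn and Esam, too low for the test, were also lower in all litters and without overlap. Emcn was at 54.8%, 44.4% and 63.5% of its control, and Esam at 85.8%, 11.6% and 53.3%. The remaining endothelial markers, Pecam1, Cdh5, Tek, Tie1 and Egfl7, went both ways between litters. The part of such cells in the Entpd1 values was not tested. In sorted bulk cells, fewer cells of a type and less RNA per cell cannot be told apart.

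Enpp1, whose enzyme makes pyrophosphate from ATP, was at 1.36, 1.71 and 1.39 FPKM in control cells against 1.02, 1.04 and 0.799 FPKM in mutant cells. The groups were separate, with the mutants at 75.1%, 60.8% and 57.6% of their controls. The log2 difference was -0.35 (SE 0.15, 95% interval -0.71 to 0.01). Enpp3 was at 1.90, 2.23 and 1.59 FPKM in control cells against 1.19, 1.52 and 1.26 FPKM in mutant cells. Here too the groups were separate, though the litter 3 control and the litter 2 mutant were close. Its log2 difference was -0.32 (SE 0.16, 95% interval -0.70 to 0.06). Enpp1 and Enpp3 lie next to each other on chromosome 10, with 0 RefSeq genes between them. The direction of both was opposite to that of their relative Enpp2, for whose higher level the group was chosen, so this contrast was not tested.

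Ank, whose protein exports pyrophosphate, was at 5.89, 6.57 and 6.52 FPKM in control cells against 4.46, 5.43 and 6.55 FPKM in mutant cells. It was lower in litters 1 and 2 but level in litter 3, so the groups overlapped. The log2 difference was -0.19 (SE 0.17, 95% interval -0.58 to 0.21).

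The phosphate carriers were the most abundant members that did not choose the group. Slc20a1 was at 31.7, 36.1 and 36.5 FPKM in control cells against 30.6, 28.6 and 25.6 FPKM in mutant cells. The mutants were all below the controls, by a small step in litter 1 (96.8% of the control) and a larger one in litters 2 and 3 (79.3% and 70.1%). The log2 difference was -0.29 (SE 0.14, 95% interval -0.62 to 0.04). Slc20a2 was at 16.0, 16.6 and 18.9 FPKM in control cells against 13.3, 15.2 and 18.2 FPKM in mutant cells. Each mutant was below its own control, but the groups overlapped, since litter 3 was high in both genotypes. The log2 difference was -0.14 (SE 0.16, 95% interval -0.52 to 0.24).

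Of the adenosine receptors, Adora2b, which couples to cyclic AMP production, was the one above 1 FPKM. It was at 3.55, 3.47 and 3.34 FPKM in control cells against 2.79, 3.05 and 3.17 FPKM in mutant cells, separate groups whose gap was narrowest in litter 3. The log2 difference was -0.15 (SE 0.13, 95% interval -0.47 to 0.16). Adora1, which inhibits cyclic AMP production, was at 0.444, 0.670 and 0.800 FPKM in control cells against 0.672, 0.883 and 0.772 FPKM in mutant cells, higher in litters 1 and 2 and not in litter 3. Its 6 values stayed under the level needed for the test.

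Given the Shox2 level left in the litter 3 mutant, the litters were compared. The absolute log2 change was smallest in litter 3 for 6 of the 9 tested members, namely Entpd1, Enpp2, Enpp3, Ank, Slc20a2 and Adora2b. That held for 52.8% of all tested rows, so the share among the members was close to that of the table, and the count was made after the values were seen. Slc20a1 had its largest change in litter 3. With litter as a block, the log2 change was -0.82 for Nt5e and 1.21 for Enpp2 without litter 3. It was -1.02 and 0.97 without litter 2, whose mutant alone had Eif2s3y listed at 0.

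The authors' deposited list, whose file name calls its genes directly repressed by Shox2, names 3 of the 9 tested members, Enpp1, Ank and Adora2b, where it names 7.71% of tested rows. None of these 3 had a higher mean in the mutants. Enpp1 and Adora2b were lower in all litters and without overlap, as were 28 of the 949 named rows that were tested (2.95%), and 9.59% of those named rows were lower in all litters. Enpp2 and Nt5e are not on the list. The sources used here do not say how that list was drawn up, and it may rest on these samples.

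Around the members, a list of 74 other genes of the pathway was examined, of which 72 had a row and 35 were tested. Panx3 entered the test through its control columns alone, with every mutant column under 1 FPKM, so it had to differ and is left out of the counts that follow, over 34 genes. None of the 34 passed at an adjusted p of 0.05 in limma, with or without litter as a block. At an unadjusted p under 0.05, 4 were lower, where 1.36% of all tested rows were, and 0 higher, where 2.21% were. With the block 4 were lower and 1 higher, where the shares over all tested rows were 6.29% and 5.34%. In all 3 litters 7 were lower and 4 higher, near the 22.3% and 15.7% of all tested rows. Without overlap 6 were lower and 1 higher, where the shares over all tested rows were 5.03% and 4.22%. The median log2 change of the 34 was -0.10, against -0.04 over all tested rows. The shares over all tested rows keep genes let in by 1 group alone. Leaving those out left 12269 rows, of which 153 were lower and 247 higher at an unadjusted limma p under 0.05. Without overlap 601 of them were lower and 493 higher. The 4 lower genes were Alpl, Smpd3, Spp1 and Entpd6. Smpd3, which is also among the 6 lower without overlap, entered the test mainly through its controls.

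Panx3, a channel that releases ATP from maturing cartilage and bone cells, was at 1.37, 2.71 and 2.75 FPKM in control cells against 0.105, 0.147 and 0.333 FPKM in mutant cells. Alpl, the tissue-nonspecific alkaline phosphatase that splits pyrophosphate, was at 2.74, 7.91 and 3.76 FPKM in control cells against 1.04, 1.22 and 1.17 FPKM in mutant cells. Every mutant column of Alpl was below every control column, with a log2 difference of -1.34 (SE 0.32) and a limma adjusted p = 0.816 (0.101 in the fit blocked on litter). The log2 difference of Panx3, -1.43, is given with no test. Smpd3, a sphingomyelinase needed for bone mineral, had a log2 difference of -0.57 (SE 0.18), and Spp1, which encodes the mineral-binding protein osteopontin, one of -0.58 (SE 0.21). Smpd3 was at 1.35, 1.48 and 1.45 FPKM in control cells against 1.03, 0.482 and 0.443 FPKM in mutant cells, so it entered the test mainly through its controls. Entpd6, a relative of Entpd1 that acts in the Golgi or outside the cell, had a mean of 16.7 ± 2.18 FPKM in control cells against 12.6 ± 1.20 FPKM in mutant cells. Xpr1, the phosphate exporter, had the smallest p of the higher genes, at 11.6, 7.50 and 11.3 FPKM in control cells against 13.7, 13.4 and 12.8 FPKM in mutant cells. Its columns did not overlap, and its log2 difference was 0.38 (SE 0.19), opposite in sign to those of the carriers Slc20a1 and Slc20a2, a contrast that was not tested. The others named by the same rule as higher were Ppap2b and Ppap2a, phosphatases that break down LPA, with log2 differences of 0.20 (SE 0.13) and 0.14 (SE 0.15), Pnp, a purine-breaking enzyme, with 0.33 (SE 0.37), and the gap junction gene Gja1, with 0.19 (SE 0.24).

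Receptors for the substrates and products of the enzymes were measured as well. Of the 15 P2 receptors for ATP and other nucleotides 2 were tested, P2rx4 at 1.77 and 1.53 FPKM and P2ry1 at 3.44 and 2.73 FPKM in the control and mutant means. Of the 9 genes of LPA reception and breakdown 7 were tested, with a median log2 change of -0.03 and a range from -0.25 to 0.20. The LPA receptor gene Lpar1 was high in both groups, at 126 FPKM in control cells against 117 FPKM in mutant cells. Enzymes and carriers of adenosine had 8 tested genes, a median of -0.02 and 0 at an unadjusted p under 0.05. Thus Adk, which phosphorylates adenosine, was at 37.7 FPKM in control cells against 41.5 FPKM in mutant cells, and Ada, which deaminates it, at 3.43 and 3.04 FPKM.

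**Figure D3:**
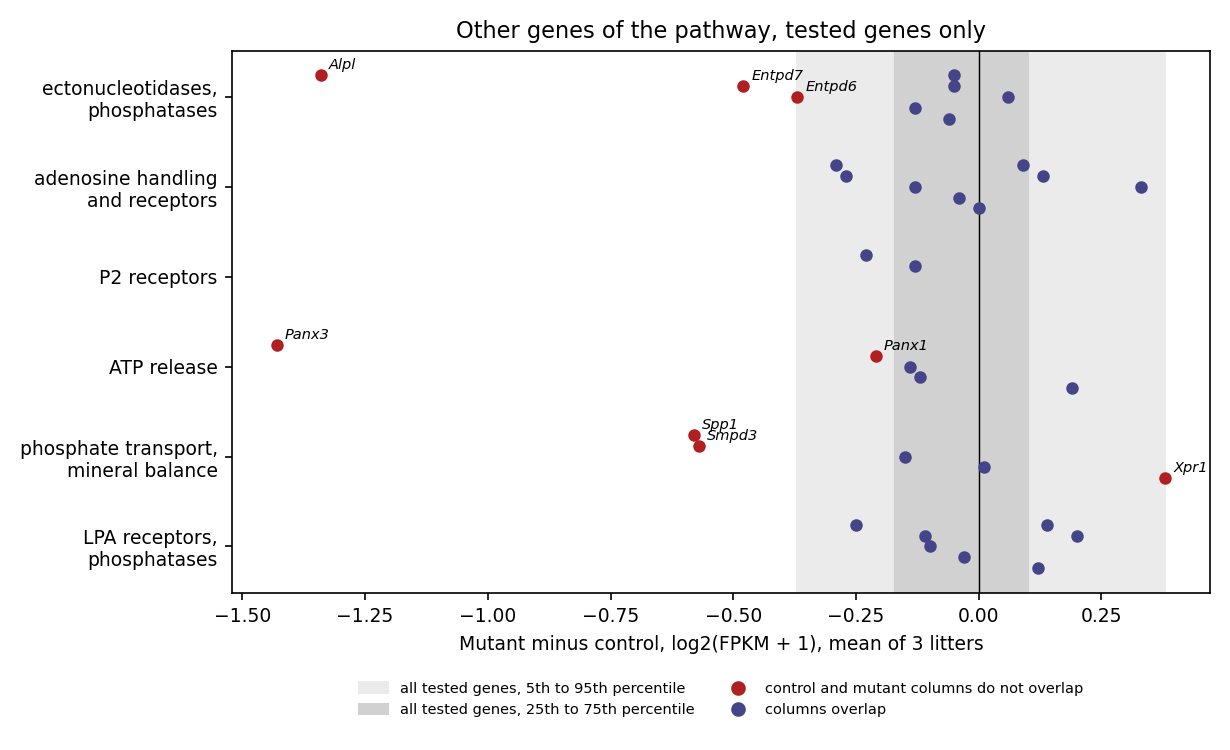
Mean log2(FPKM + 1) change of the 35 tested genes of the wider pathway by role (points, spread vertically for legibility), red where control and mutant columns do not overlap; the grey bands are the 25th to 75th and the 5th to 95th percentiles over all tested genes. Panx3, at -1.43 and let in by its control columns alone, and Alpl, at -1.34, stand apart on the lower side, and Xpr1, at 0.38, is the one higher gene without overlap.

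Markers of bone and hypertrophic cartilage were lower in the same mutant columns as Nt5e and the 5 members lower in all litters. Panx3, which passed the level filter through the controls alone, is left out of the count. The other 5 tested markers of that list, Runx2, Sp7, Alpl, Ihh and Spp1, were all lower in all 3 litters, where 22.3% of all tested rows were. The groups overlapped for Runx2 and Ihh. They did not for Sp7, Alpl and Spp1, where 5.03% of all tested rows were lower without overlap. None of these 5 passed in limma at an adjusted p of 0.05, with or without litter as a block. With Panx3 kept in, the 9 listed genes summed to between 21.2 and 42.0 FPKM in the controls and between 7.58 and 18.6 FPKM in the mutants. Alpl, Panx3, Spp1 and Ibsp are in the pathway list too. Col10a1, Ibsp and Mmp13, which mark fully hypertrophic cartilage and later bone, were at most 0.388 FPKM in any column. Limb mesenchyme markers, of which 4 of 5 had a row, summed to between 265 and 416 FPKM in the controls and between 270 and 481 FPKM in the mutants, so the sorted cells carried the markers of their labelled tissue. Joint interzone markers, which include Enpp2 itself, summed to between 167 and 222 FPKM and between 174 and 252 FPKM. Enpp2 is not counted here, since the group was chosen for its higher level. Of the others, Gdf5 and Osr2 were higher in all litters and Osr1 lower, where 15.7% of all tested rows were higher and 22.3% lower. The joint ligand gene Gdf5 stood at 24.3, 19.2 and 20.5 FPKM in control cells against 44.1, 49.0 and 47.0 FPKM in mutant cells. Osr2 was at 136%, 128% and 161% of its control in litters 1, 2 and 3 and Osr1 at 61.7%, 77.2% and 83.0%, both with overlapping groups, and Wnt9a (67.3%, 102% and 81.2%) and Erg (76.1%, 94.1% and 115%) went both ways. Red cell markers summed to 322 to 574 FPKM for controls and 223 to 679 FPKM for mutants, muscle markers to 27.3 to 72.3 and 46.3 to 48.2 FPKM, nerve and glia markers to 49.5 to 89.4 and 64.5 to 90.2 FPKM, and surface ectoderm markers to 9.45 to 28.9 and 9.99 to 14.3 FPKM, so these lists overlapped. Cartilage markers (640 to 722 and 568 to 969 FPKM) overlapped as well. The sum of 10 genes of the response to dissociation also overlapped (503 to 707 and 380 to 713 FPKM). Of these 10, 2 were higher and 2 lower in all litters, near the 15.7% and 22.3% of all tested rows. The heat shock gene Hspa1a was at 1.70, 3.57 and 0.275 FPKM in control cells against 29.2, 50.4 and 0.583 FPKM in mutant cells, and Hspa1b at 2.39, 6.74 and 0.493 FPKM against 31.0, 65.8 and 1.09 FPKM. Both were higher in the mutant of every litter, by far the most in litters 1 and 2, with limma adjusted p = 1.00 for each (0.216 and 0.187 in the fit blocked on litter). The early response genes Junb and Egr1 were lower in every litter, at 47.9%, 62.4% and 96.5% and at 53.3%, 68.2% and 99.3% of their controls, and the other 6 went both ways. The part of this stress response or of any of these cell types in the values of Nt5e, Enpp2 or the other members was not tested.

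**Figure D4:**
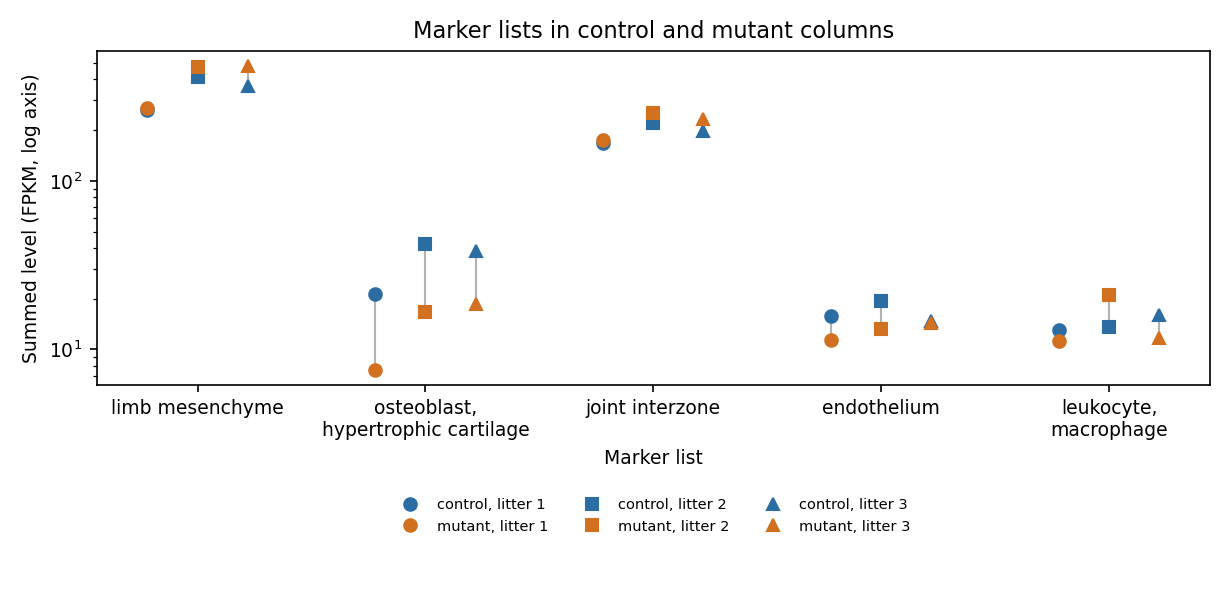
Summed FPKM (log axis) of 5 marker lists in the control (blue) and mutant (orange) columns, joined within litters. The bone and hypertrophic cartilage sum, which includes Panx3, is lower in the mutant of each litter. The endothelial sum is also lower in each mutant by a smaller step, and the mesenchyme, joint and leukocyte sums overlap between genotypes.

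Across the 6 columns, the rows most like Nt5e in log2(FPKM + 1) among 11021 with a mean of 2 FPKM or more were Fam69c, Ddb1 and Tdrd7, with Pearson r = 0.994, 0.990 and 0.982. Fam69c was at 10.9, 7.27 and 9.22 FPKM in control cells against 5.24, 5.38 and 5.64 FPKM in mutant cells, with the same low litter 2 control and the same even mutants as Nt5e. Ddb1 differed far less in size, at 252 ± 4.73 against 237 ± 1.21 FPKM. The rows most like Enpp2 were 2610301B20Rik, the heparan sulfate enzyme gene Ndst4 and the potassium channel gene Kcnd2, with r = 0.995, 0.995 and 0.992. Ndst4 was at 0.884, 0.628 and 0.738 FPKM in control cells against 5.24, 3.77 and 2.55 FPKM in mutant cells. It passed the level filter through its mutant columns alone, so it had to differ between the genotypes. Kcnd2 was at 2.76, 1.93 and 2.16 FPKM in control cells against 6.91, 5.48 and 4.27 FPKM in mutant cells, with the highest mutant in litter 1 and the lowest in litter 3, as for Enpp2. These r values rest on 6 columns that share litters and 2 genotypes, and 15 rows for Nt5e and 33 for Enpp2 exceeded 0.95.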

How the data were processed

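The deposited table gives 1 value per gene, genotype and litter in 6 columns, and 9 samples are labelled (3 control, 4 mutant and 2 whole limb, the last not analysed here). The authors used TopHat and Cuffdiff on mm9, per the submitters' processing notes, and per the file headers values were normalised by the Cuffdiff geometric method for each litter. The deposited values were taken as FPKM, since Cuffdiff reports that unit, though the header does not print the word. Which versions, gene models or filters they used is not given in these sources. Column sums ran from 347708 to 439109 FPKM, which does not measure sequencing depth, so depth is unknown. Among rows under 0.15 FPKM, log2 ratios within a litter lay within 0.05 of -1, 0 or 1 for 8.13%, 6.12% and 44.5% of rows in litters 1, 2 and 3. Steps of whole reads may thus show in part of litter 3, but reads were not recovered in any litter.

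Rows at 1 FPKM or more in at least 3 columns entered limma 3.58.1 in R 4.3.3 on log2(FPKM + 1) with an intensity trend, without a litter term, adjusted by Benjamini-Hochberg over 12314 rows at 0.05. The code was tested on simulated data. An exact two-sided permutation test of 3 columns against 3 cannot go below 0.1 and was not used. A litter number marks a shared litter in the labels, and deviations from group means correlated within litters at 0.87, 0.57 and 0.77, so a blocked fit on litter was run too. Alternatives were a pseudocount of 0.1, no row filter, a mean of 5 FPKM or more, quantile normalisation, column weights, and leaving out columns or litters. The members and gene lists were chosen with earlier results of these data known. Named genes were the 10 members, Shox2, per direction the 5 pathway genes with the smallest p, and the 3 rows most like Nt5e and Enpp2. Other genes were named as examples after their values were seen. Of 74 pathway genes, 72 matched a row by symbol. Promoters are from RefSeq (GRCm38.p6).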

Additional observations from a re-analysis of the deposited data

How the results depend on the processing

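Over the alternatives, the log2 change ran from -1.03 to -0.72 for Nt5e and from 0.97 to 1.21 for Enpp2. It ran from -0.59 to -0.28 for Enpp1, -0.49 to -0.17 for Enpp3, -0.30 to -0.07 for Ank, -0.41 to -0.19 for Slc20a1, -0.25 to -0.04 for Slc20a2 and -0.20 to -0.10 for Adora2b. Entpd1 changed sign, from -0.02 without control replicate 3 to 0.39 without mutant replicate 3. None of the 7 tested members besides Nt5e and Enpp2 passed under any alternative. The limit of a mean of 5 FPKM left out Entpd1, Enpp1, Enpp3 and Adora2b, and Adora1 was fitted only without the row filter. Over all rows the counts called were 0 higher and 0 lower with the replicate block, and 12 higher and 3 lower with column weights. With the replicate block they were 315 higher and 219 lower without litter 2, 31 and 5 without litter 3, and 0 and 0 without litter 1. Leaving out 1 column gave 0 to 1 higher and 0 to 1 lower, with the 1 higher without control replicate 3 and the 1 lower without mutant replicate 3. The cause was not tested. Of the pathway list, 1 gene was higher at an unadjusted p under 0.05 with the block, against 0 without it. Unknown depth limits what can be said of Adora1, Entpd1, Enpp1 and Enpp3.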
